A study of Mus musculus with 7 samples.

Results

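Ccl5+ Nkg7+ barcodes were T cell barcodes of the inflamed central nervous system of mice that carried transcripts of the chemokine gene Ccl5 and of the granule membrane gene Nkg7. They were chosen from raw counts of unique molecular identifiers (UMIs, 1 per captured transcript). A barcode was kept with at least 200 genes and at most 10% mitochondrial UMIs, at least 2 UMIs over Cd3d, Cd3e and Cd3g, and at most 120 UMIs of Lyz2, C1qb and Cd74 together per 10000. It then needed at least 2 UMIs of Ccl5 and 1 of Nkg7, and no UMI of Cd8a, Cd8b1, Ikzf2, Cxcr6 or Cd163l1. The rule found 424 of 13922 barcodes over 7 libraries, or 424 of 1961 that met every condition except the Ccl5 and Nkg7 minimums.

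CCL5 is a chemokine that draws T cells and monocytes, and NKG7 is a protein of cytotoxic granules, so the pair marks T cells with an effector or cytotoxic programme. Granzymes are serine proteases stored in such granules. CXCR3, the receptor for interferon-induced chemokines, is typical of type 1 helper cells, which enter the central nervous system in experimental autoimmune encephalomyelitis (EAE), a mouse model of multiple sclerosis.

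All mice were of the B6 background and had EAE induced with the MOG35-55 myelin peptide. Wild type mice (WT, genotype label Lag3wt) were set against mice lacking the inhibitory receptor LAG3 (Lag3KO, genotype label Lag3Floxed, with no Cre line named), 5 mice per group, with cells taken at peak disease from animals of matched score. Cells were bead-selected for CD4 (2 WT_CD4 and 2 Lag3KO_CD4 libraries) or for CD45, a marker of all leukocytes (2 WT_CD45 and 1 Lag3KO_CD45 libraries), and run on the 10x 3′ v2 chemistry. The labels do not say which mice went into which library, so p-values measure the spread between libraries, which may be technical. Ages are not given.

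The libraries held 4585251 to 18940186 UMIs. Library medians for members were 1869.5 to 2105 UMIs after CD4 selection and 2858.5 to 3888 after CD45 selection. Lag3 itself reached 50.0 and 23.3 UMIs per 1000000 (CPM) in the WT_CD4 libraries, 0.194 and 0 in the Lag3KO_CD4 libraries, 16.4 in WT_CD45 1 and 0.106 in Lag3KO_CD45 1. In the library labelled WT_CD45 2 it stood at 0.249 CPM, which goes against that label, so comparisons that use this library are also given without it. Haemoglobin UMIs stood at 13123 CPM in WT_CD4 2 and 3190 CPM in Lag3KO_CD4 2, over all barcodes, and at or below 1.73 CPM in the other libraries. The genotypes of the CD4 libraries each held 1 such library. Pairs of libraries shared at most 12 barcode sequences, and none was a member in both.

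Among members the median count was 19 UMIs of Ccl5 (highest 272) and 3 of Nkg7 (highest 47). Just inside the limits, 25 members had 2 Ccl5 UMIs, 94 had 1 Nkg7 UMI and 34 had 2 CD3 UMIs. Just outside, 55 barcodes of the same gate had 1 Ccl5 UMI with Nkg7, 188 had Ccl5 without Nkg7, 33 failed for a single CD3 UMI, and 47 lay between 120 and 240 on the myeloid limit. Of 1771 Ccl5+ Nkg7+ T barcodes, Cxcr6 alone removed 621, the regulatory T cell factor gene Ikzf2 alone removed 169, and Cd8a, Cd8b1 or Cd163l1 alone removed 5, 13 and 3.

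The CD4 label held in part. Cd4 UMIs were found in 176 of the 424 members, and 248 had none. By library the share with a Cd4 UMI was, for WT_CD4 1 and 2, 45.2% and 42.9%, for Lag3KO_CD4 1 and 2, 35.3% and 43.6%, for WT_CD45 1, 35.7%, and 31.6% each for Lag3KO_CD45 1 and the library labelled WT_CD45 2. Other T barcodes at the same gate with neither Ccl5 nor Nkg7 gave 34.1% (326 of 957, CD4 libraries), Ccl5+ Nkg7+ barcodes with Cd8a or Cd8b1 gave 8.82% (6 of 68), and myeloid barcodes gave Cd4 in at most 7.69% at median depths of 4010 to 6380 UMIs. Among all gated T barcodes of the CD45 libraries, members included, Cd4 UMIs were in 25 of 51 (WT_CD45 1) and 37 of 70 (Lag3KO_CD45 1). In the library labelled WT_CD45 2 they were in 36 of 78. Each of these shares lay above that of the members of the same library. Every library's share in members lay above those of the Cd8a or Cd8b1 barcodes and of the myeloid barcodes. A barcode without a Cd4 UMI is not shown to lack CD4.

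T cell receptor genes were listed only in the CD45 libraries. There 46 of 52 members (88.5%) had a UMI of Trac and 48 of 52 had Trbc2, the constant regions of the alpha and beta chains, while 34 of 809 myeloid barcodes had Trac. Genes of the gamma delta T cell list (8 listed) were seen in 1, 3 and 7 members of WT_CD45 1, the library labelled WT_CD45 2 and Lag3KO_CD45 1, Trdc of the gamma delta receptor in 4 of them. Foxp3, the regulatory T cell factor gene, was seen in 3 of the 424, all in WT_CD4 1.

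Some markers of other cells differed between the sorts. Members of the CD4 libraries had no UMI of the 4 platelet genes Pf4, Ppbp, Itga2b and Gp1bb, of the NK receptor gene Ncr1 or of Zbtb16, a regulator of innate-like T cells. Members of the CD45 libraries had none of the platelet genes or Zbtb16 either. Ncr1 was seen there in Lag3KO_CD45 1 and the library labelled WT_CD45 2, but not in WT_CD45 1. The NK list (10 genes) summed to 42.6 to 548 CPM in CD4-selected members and 1439 to 2272 CPM in CD45-selected ones. It includes Tyrobp and Fcer1g, the only 2 of its genes seen in Ccl5- Nkg7- barcodes of WT_CD45 1 and Lag3KO_CD45 1. In those barcodes the list still summed to 1776 and 1464 CPM, so the sum alone does not show NK cell RNA. The myeloid list (12 genes) summed to 423 to 538 CPM in 3 CD4 libraries, 3997 CPM in Lag3KO_CD4 1 and 5884 to 12394 CPM in the CD45 libraries. In Lag3KO_CD4 1 a single barcode held 72 of 83 Apoe UMIs and all 98 of C1qc. The dendritic list (9 genes) reached 2154 CPM in WT_CD4 2, where 1 barcode held 61 of 63 H2-Aa UMIs, against 58.2 to 482 CPM in the other CD4 libraries and 4162 to 6797 CPM in the CD45 libraries. The NK, myeloid and dendritic sums were thus higher in every CD45 library than in any CD4 library, and their part in the members' values was not tested.

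Members made up 17.5% (93 of 530), 18.1% (56 of 310), 18.8% (51 of 272) and 26.5% (172 of 650) of the gated T barcodes in WT_CD4 1 and 2 and Lag3KO_CD4 1 and 2. In the CD45 libraries they made up 27.5% (14 of 51), 24.4% (19 of 78) and 27.1% (19 of 70). Lag3KO_CD4 2 stood above the other CD4 libraries, and the Lag3KO_CD4 libraries differed from each other more than the WT_CD4 libraries did. The group means were 17.8% ± 0.366 (SD, n = 2) for WT_CD4, 22.6% ± 5.45 (SD, n = 2) for Lag3KO_CD4 and 25.9% ± 2.19 (SD, n = 2) for WT_CD45, with 27.1% in the single Lag3KO_CD45 library. The mean within-sort difference, Lag3KO minus WT, was 3.02 percentage points (exact permutation test within sort, two-sided, p = 0.278, the smallest possible being 0.0556), so no difference in share was shown. It was 2.25 points without the library labelled WT_CD45 2, 1.09 without Lag3KO_CD4 2, 4.95 without Lag3KO_CD4 1, 5.96 after thinning each barcode to 1500 UMIs and 0.993 with a Cd4 UMI asked for. Over all T barcodes, the shares ran from 3.83% in WT_CD45 1 to 11.9% in Lag3KO_CD4 2.

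**Figure D1:**
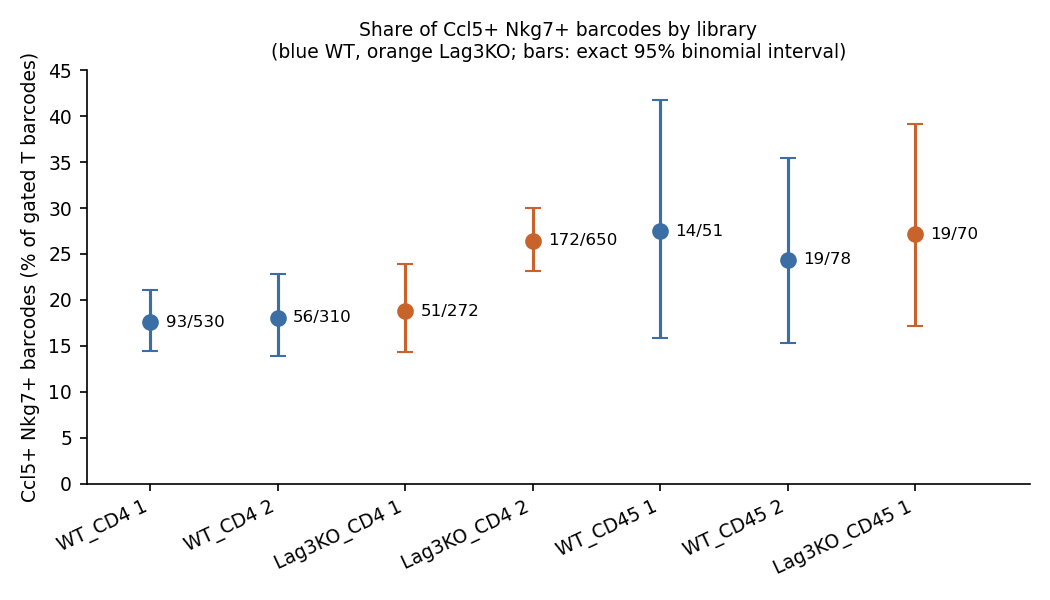
Members as a percentage of gated T barcodes (vertical axis) in each of 7 libraries (horizontal axis), with exact Clopper-Pearson 95% binomial intervals, which cover counting error only, and the counts beside each point. Lag3KO_CD4 2, at 26.5%, lies above the other CD4 libraries (17.5% to 18.8%), and the CD45 libraries have the widest intervals.

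Members were then set against the 957 T barcodes of the CD4 libraries that passed the same gate with no UMI of Ccl5 or Nkg7 (Ccl5- Nkg7- barcodes). UMIs were summed per library and class, and edgeR's quasi-likelihood test compared the classes within the 4 CD4 libraries, with Benjamini-Hochberg adjustment over all genes tested. The genes of the rule were left out, but the classes were split on Ccl5 and Nkg7 counts of the same barcodes. Of 4716 genes, 384 (8.14%) passed an adjusted p of 0.05, 178 higher (3.77%) and 206 lower (4.37%) in members. Gzmk and Cxcr3 were chosen as markers with results known and are given as a description, with no p. Both still enter the counts of called, listed and named genes, which are to that extent not free of the choice.

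The 3 granzyme genes tested were higher in members. Gzmk, which encodes a tryptase-like granzyme, stood at 228, 287, 415 and 452 CPM in members of WT_CD4 1, WT_CD4 2, Lag3KO_CD4 1 and Lag3KO_CD4 2, against 12.9, 35.8, 3.64 and 15.7 CPM in Ccl5- Nkg7- barcodes. The classes did not overlap, and the log2 difference was 4.23 ± 0.24 (SE). Gzma, a second tryptase, stood at 394, 1321, 299 and 324.5 CPM against 32.2, 11.9, 54.6 and 27.8 CPM (4.11 ± 0.27, adjusted p = 5.90e-12), highest in members of WT_CD4 2. Gzmb, the granzyme that cleaves after aspartate and starts apoptosis, stood at 336, 503, 632 and 173 CPM against 80.5, 76.4, 65.5 and 120.04 CPM (1.95 ± 0.24). Gzmk UMIs were in 134 of 424 members (31.6%), 34.4% in the CD4 libraries and 11.5% in the CD45 libraries, where median depth was higher, against 1.88% of Ccl5- Nkg7- barcodes of the CD4 libraries and 0 of 53 myeloid barcodes there.

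The promoters of these 3 genes are printed because the genes were higher in members together. Each line holds the 250 bases before the gene's start in the RefSeq table (GRCm38.p6, minus strand, 5′ to 3′). Capitals mark the letters TCACAC or GTGTGA, the core bound by T-box factors such as T-bet and EOMES, and TGTGGT or ACCACA, the core bound by RUNX factors.
Gzmk, chr13:113180966-113181215: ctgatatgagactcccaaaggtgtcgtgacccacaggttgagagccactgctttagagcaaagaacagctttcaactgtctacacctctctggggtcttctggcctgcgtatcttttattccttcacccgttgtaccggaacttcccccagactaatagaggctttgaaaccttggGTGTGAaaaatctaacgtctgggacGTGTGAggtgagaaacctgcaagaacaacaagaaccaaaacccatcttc
Gzma, chr13:113100982-113101231: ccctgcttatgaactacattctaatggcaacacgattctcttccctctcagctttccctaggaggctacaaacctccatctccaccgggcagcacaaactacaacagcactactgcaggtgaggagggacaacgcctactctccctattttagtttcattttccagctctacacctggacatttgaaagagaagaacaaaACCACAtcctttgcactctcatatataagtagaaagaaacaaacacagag
Gzmb, chr14:56262335-56262584: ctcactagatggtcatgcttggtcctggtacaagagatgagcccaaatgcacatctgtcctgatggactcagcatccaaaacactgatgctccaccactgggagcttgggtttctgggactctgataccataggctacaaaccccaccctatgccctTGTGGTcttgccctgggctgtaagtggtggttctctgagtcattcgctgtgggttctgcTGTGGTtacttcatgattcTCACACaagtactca
The Gzmk window holds 2 T-box matches and no RUNX match, the Gzma window 1 RUNX match, and the Gzmb window 1 T-box and 2 RUNX matches, none overlapping. Both strands were searched. Of the other genes looked up and matched, Fasl, Eomes, Lgals3, Il18rap and Serpinb6b had neither set of letters in their windows. Those of Nkg7, Cxcr3 and Ly6c2 held at least 1 match. Among 27025 promoter windows of this length, 12.23% hold the T-box letters, 14.18% the RUNX letters and 2.061% both, so single matches are common, and a match is not a shown binding site.

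Of 15 listed granule genes, 13 passed the filter on low counts, and 8 of these were higher, the chosen marker Gzmk among them, and none lower. The median log2 difference was 1.32 beside 0.0001 over all genes tested. The others were Ctsw (cathepsin W, 1.69 ± 0.16), Serpinb6b (1.82 ± 0.18) and Serpinb9 (1.32 ± 0.27), inhibitors of serine proteases of the granzyme kind, the death ligand gene Fasl (1.94 ± 0.35) and Cst7 (cystatin F, 1.10 ± 0.25). Genes of granule release did not pass, such as Rab27a (0.44 ± 0.27) and Unc13d (0.32 ± 0.31). The perforin gene Prf1, whose product opens the target membrane, was near 0, with 1 UMI each in members of WT_CD4 2, Lag3KO_CD4 2 and Lag3KO_CD45 1 and none in the other 4 libraries.

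**Figure D2:**
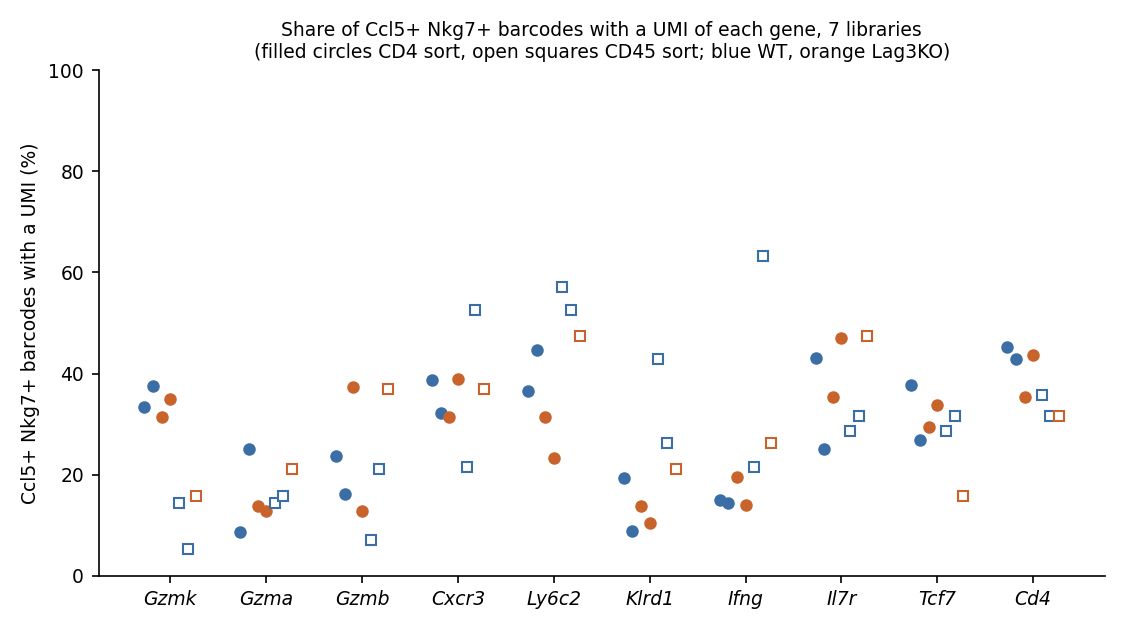
Percentage of Ccl5+ Nkg7+ barcodes with at least 1 UMI (vertical axis) of 10 genes (horizontal axis), 1 point per library, filled circles for the CD4 sort and open squares for the CD45 sort. Gzmk was found in 31.4% to 37.5% of members after CD4 selection and in 5.26% to 15.8% after CD45 selection, and Cd4 in 31.6% to 45.2% of members over all 7.

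Among 10 tested chemokine and cytokine genes (of 18 listed), 2 were higher and 2 lower. Ifng, the type 1 cytokine gene, stood at 80.6, 108, 266 and 104 CPM in members against 86.9, 19.1, 21.8 and 8.70 CPM (1.84 ± 0.37, adjusted p = 0.000823). In WT_CD4 1 the classes did not separate for Ifng, as 1 Ccl5- Nkg7- barcode held 44 of that class's 54 UMIs. Ccl4, another chemokine gene, was higher by 4.28 ± 0.39, but single barcodes held 30 of 33, 1 of 1, 18 of 28 and 41 of 46 member UMIs. Tnfsf11, which encodes RANKL, was lower (-2.998 ± 0.467), as was Il2 (-2.17 ± 0.48), where 300 of 310 UMIs in the WT_CD4 1 comparison class came from 1 barcode.

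Several receptor genes for tissue entry were higher, and Ccr7 and S1pr1 were lower. Cxcr3 stood at 255, 179, 174.5 and 234 CPM in members against 96.6, 103, 113 and 115 CPM, without overlap (1.01 ± 0.16). Cx3cr1, the fractalkine receptor gene (3.14 ± 0.58), was higher, as were the integrin genes Itgb2 (0.99 ± 0.15) and Itga4 (0.87 ± 0.17), the latter a chain of VLA-4, which T cells use to cross into the brain. Ccr7 (-2.43 ± 0.42), which serves entry to lymph nodes, was lower, as was the egress receptor gene S1pr1 (-0.71 ± 0.18). In all, 8 of 17 tested homing genes were higher, the chosen marker Cxcr3 among them, and 4 lower (22 listed, median 0.27).

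Of 14 tested regulators and surface genes of type 1 or effector T cells (17 listed), 9 were higher and 1 lower, with a median of 0.90. Ly6c2, a surface protein gene of effector T cells and monocytes, had the smallest p of all genes (4.48 ± 0.19, adjusted p = 2.24e-16), at 439, 711, 457 and 250.02 CPM in members against 11.3, 35.8, 18.2 and 15.7 CPM. Ly6c2 UMIs were also in 38.5% to 85.4% of myeloid barcodes, it has a near copy in Ly6c1, and whether myeloid RNA took part was not tested. Tbx21, which encodes T-bet, the master regulator of type 1 helper cells, was higher (2.18 ± 0.60, adjusted p = 0.0184), as was Eomes, its T-box relative (4.64 ± 0.92), on 29 UMIs in members and 2 in the comparison class. Id2 (1.06 ± 0.10), Zeb2 (2.81 ± 0.46), Runx3 (0.57 ± 0.17), and the cytokine receptor genes Il18rap (1.91 ± 0.28), Il12rb2 (2.30 ± 0.60) and Il2rb (0.74 ± 0.14) were higher.

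No resting or memory T cell gene was higher, and 7 of 13 tested were lower (15 listed, median -0.71). Tcf7, which encodes TCF1 and supports self-renewal, was at -0.86, the chromatin organiser gene Satb1 at -1.31 and Il7r, the interleukin-7 receptor gene, at -0.59 ± 0.13. Klf2, a quiescence factor gene, differed by 0.03 ± 0.09 and did not pass. Il7r UMIs were nonetheless in 172 of 424 members and Tcf7 UMIs in 136.

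Of 7 tested genes of the type 17 helper programme 5 were lower (12 listed, median -2.00). Il17a had 1 UMI in members of the CD4 libraries against 226 in the comparison class. Il17f had 0 against 163 UMIs and was at least 24.7-fold lower, taking 3 UMIs over all members as the limit of a count of 0. In Lag3KO_CD45 1, a single member held 29 Il17a UMIs. Few barcodes carried them, as 1 barcode held 75 of 194 Il17a UMIs in WT_CD4 1 and 50 of 51 Il17f UMIs in Lag3KO_CD4 2. The membrane protein genes Tmem176a (-2.66 ± 0.26) and Tmem176b (-2.00 ± 0.24) were lower too, while Rora (0.13 ± 0.16) and Maf (0.11 ± 0.15) did not pass.

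Of 10 tested co-inhibitory and activation receptor genes (15 listed, median -0.59), 6 were lower, 1 was higher and 3 did not pass, Cd27 among these (-0.20 ± 0.20). Tnfrsf4, which encodes OX40, stood at 201, 179, 208 and 218 CPM in members against 542, 470, 721 and 593 CPM, without overlap (-1.52 ± 0.12, adjusted p = 3.47e-10). Tnfrsf9, which encodes 4-1BB (-2.05 ± 0.21), Ctla4 (-0.98 ± 0.19), Tnfrsf18 (-0.61 ± 0.10), Icos (-0.57 ± 0.14) and Cd28 (-0.48 ± 0.11) were lower, and Pdcd1, the PD-1 gene, was higher (0.59 ± 0.16). Of the regulatory T cell list 6 of 7 tested were lower (12 listed, median -0.98), the rule itself having excluded Ikzf2. Among NK receptor genes, Klrg1 (2.05 ± 0.43) and Klrd1 (1.42 ± 0.33) were higher of 6 tested (15 listed, median 0.88).

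The genes of the type I interferon and interferon gamma lists that passed were all lower. In the type I list 1 of 17 tested genes passed, Ifi27l2a (-0.23 ± 0.05), while 13 were above 0 (median 0.14). In the interferon gamma list 6 of 15 were lower and none higher (median -0.45), among them the GTPase genes Gbp2 (-0.96 ± 0.18) and Iigp1 (-1.30 ± 0.31). Immediate early genes, which dissociation can also induce, were lower in 7 of 14, such as Zfp36 (-0.95 ± 0.18) and Fos (-0.51 ± 0.10), while the phosphatase gene Dusp2 was higher (1.38 ± 0.11). Ribosomal protein genes were lower in 57 of 96 (median -0.21).

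Cell cycle genes were higher in 7 of 10 tested (14 listed, median 1.55), such as Stmn1 (1.71 ± 0.25) and Birc5 (3.32 ± 0.55), while Mki67 (1.85 ± 0.70) did not pass. The share of barcodes with a UMI of a cell cycle gene was 9.68%, 7.14%, 19.6% and 10.5% in members and 6.38%, 8.42%, 7.24% and 4.90% in the comparison class, higher in 3 of 4 libraries. Members had more UMIs in each CD4 library (medians 1992, 2070.5, 2105 and 1869.5 against 1664, 2030.5, 1601.5 and 1778.5). Genes of the cytoskeleton and of S100 and galectin proteins were higher in 10 of 13 (14 listed, median 0.46), led by Lgals3 (1.76 ± 0.16), Lgals1 (0.94 ± 0.09), Anxa2 (1.18 ± 0.18) and Tmsb4x (0.36 ± 0.03). Of 8 MHC class I genes H2-Q7 passed (0.48 ± 0.10). It has a near copy in H2-Q6.

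The further named genes by the rule of smallest p were Ctsd (1.21), a lysosomal protease gene, and, lower, Ramp3 (-1.75), Rgs10 (-1.23), Socs3 (-1.31), Tnfsf8 (-1.75), Rps29 (-0.42) and Rps19 (-0.32). All 24 named genes kept their direction and call under every alternative in which they were tested. The count of called genes fell to 190 with DESeq2, to 207 with each barcode thinned to 1500 UMIs and to 253 without WT_CD4 1. With the 3 CD45 libraries added, it was 304 of 2565 (11.9%), and 307 without the library labelled WT_CD45 2.

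**Figure D3:**
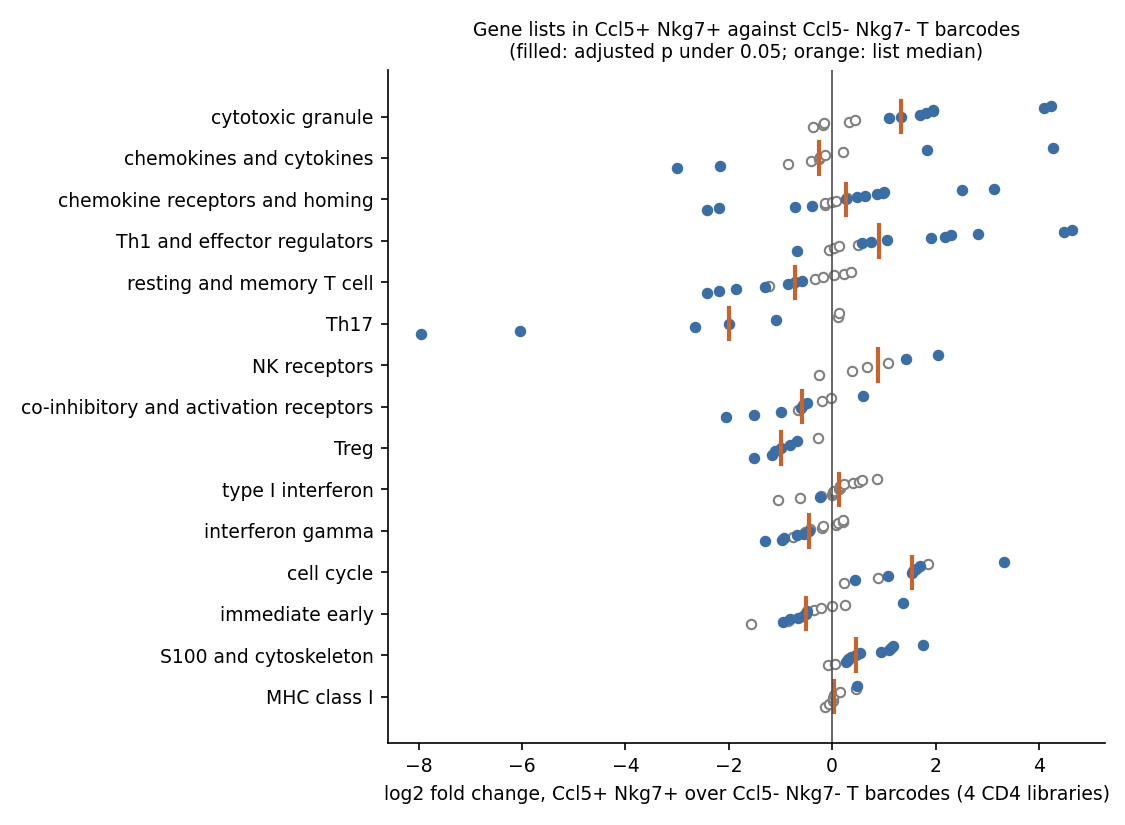
Log2 fold change, members over Ccl5- Nkg7- T barcodes in the 4 CD4 libraries (horizontal axis), for every tested gene of 15 lists (vertical axis), filled where the adjusted p was under 0.05, with the list median in orange. The granule list has its median at 1.32 and the type 17 list at -2.00, while MHC class I genes lie near 0.

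Cxcr6, a chemokine receptor gene of tissue-resident T cells, was the veto that removed most Ccl5+ Nkg7+ T barcodes. The 457 barcodes of the CD4 libraries that met the whole rule except for a Cxcr6 UMI (Cxcr6+ barcodes) had higher medians of 2592 to 3232 UMIs. Against them, members differed in 79 of 4778 genes (1.65%), 33 higher (0.691%) and 46 lower (0.963%), with a median log2 difference of 0.0139 over all genes. This count fell to 18 with DESeq2, 12 after thinning, 19 without Lag3KO_CD4 2, 32 without Lag3KO_CD4 1 and 46 without WT_CD4 1. It was 30 with all 7 libraries and 41 without the library labelled WT_CD45 2. Of the 24 named genes, 8 kept their call in every alternative in which they were tested, which for Eomes were only 6 of 12.

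Gzma, Klf2, Gzmk and Eomes were higher in members than in Cxcr6+ barcodes. Gzma stood at 394, 1321, 299 and 324.5 CPM against 186, 265, 79.1 and 47.8 CPM, higher in every library (2.04 ± 0.16, adjusted p = 6.85e-14). Klf2, which drives genes of T cell egress, stood at 1159, 1874, 864 and 1029 CPM against 453, 1188, 473 and 766 CPM (0.81 ± 0.10, adjusted p = 1.46e-07). Gzmk stood at 228, 287, 415 and 452 CPM against 212, 198, 92.0 and 200.01 CPM (1.01 ± 0.17), and edgeR's call for it was lost with DESeq2 and without Lag3KO_CD4 2. Eomes had 29 UMIs in members and 2 in Cxcr6+ barcodes (4.55 ± 0.91, adjusted p = 0.00128). Gzmb was higher (0.95 ± 0.25), which made 3 of 13 granule genes.

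Ifitm1, an interferon-induced membrane protein gene, was lower in members, at 44.8, 43.1, 24.9 and 45.2 CPM against 398, 111, 338 and 200.01 CPM in Cxcr6+ barcodes (-2.57 ± 0.23, adjusted p = 1.99e-12). Furin, a protease gene, stood at 107, 115, 158 and 79.8 CPM against 398, 272, 299 and 227 CPM (-1.41), again without overlap. Also lower were Ifitm2 (-1.17), Ramp1 (-2.04), Plac8 (-0.81), S100a6 (-0.55), Vim (-0.61), Capg (-0.83), Tmem176a (-1.80), AA467197 (-1.78), Actn2 (-1.65) and, on 3 UMIs in members, Wfdc17 (-3.49). The alternative with all 7 libraries lost the calls of Plac8, S100a6, Wfdc17, Vim, Capg and Tmem176a. The myeloid list stood at 439, 538, 3997 and 423 CPM in members against 862, 642, 3195 and 735 CPM in Cxcr6+ barcodes. It was thus higher in Cxcr6+ barcodes except in Lag3KO_CD4 1. Whether myeloid RNA took part in the differences of this class was not tested.

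Of the type I interferon list, 5 of 16 genes were higher in members than in Cxcr6+ barcodes and none lower (median 0.38), namely Ifi27l2a (0.42 ± 0.08), Ifit3 (0.89 ± 0.19), Xaf1 (0.77 ± 0.20), Ifit1 (0.69 ± 0.18) and Rtp4 (0.65 ± 0.17). The call of Ifit3 was lost with DESeq2, after thinning, without WT_CD4 1, without Lag3KO_CD4 2 and with 7 libraries, with or without the library labelled WT_CD45 2, and that of Ifi27l2a after thinning and without a count filter. Tcf7 (0.67 ± 0.18), Itga4 (0.68 ± 0.18), Cx3cr1 (1.35 ± 0.36), Pdcd1 (0.67 ± 0.17) and the costimulatory receptor gene Cd27 (0.84 ± 0.23) were higher. Id2 (-0.37 ± 0.09), Tnfsf11 (-2.45 ± 0.57), Ccl1 (-0.82 ± 0.21), Tgfb1 (-0.61 ± 0.17), Stmn1 (-0.84 ± 0.18) and Tubb5 (-0.47 ± 0.12) were lower. Ly6c2 (0.00 ± 0.19), Cxcr3 (0.19 ± 0.16), Ifng (-0.02 ± 0.22) and Tbx21 (0.30 ± 0.36) did not pass, and the intervals around these values still allow differences. The other genes named by the rule were higher too, Saraf (0.64), Rsrp1, Gtf2i, Gm26740 and Samhd1, each losing its call with DESeq2, after thinning and without Lag3KO_CD4 2. Ccl4 passed (1.00 ± 0.24) but turned to -0.83 without the barcode that held most of its UMIs in each library.

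**Figure D4:**
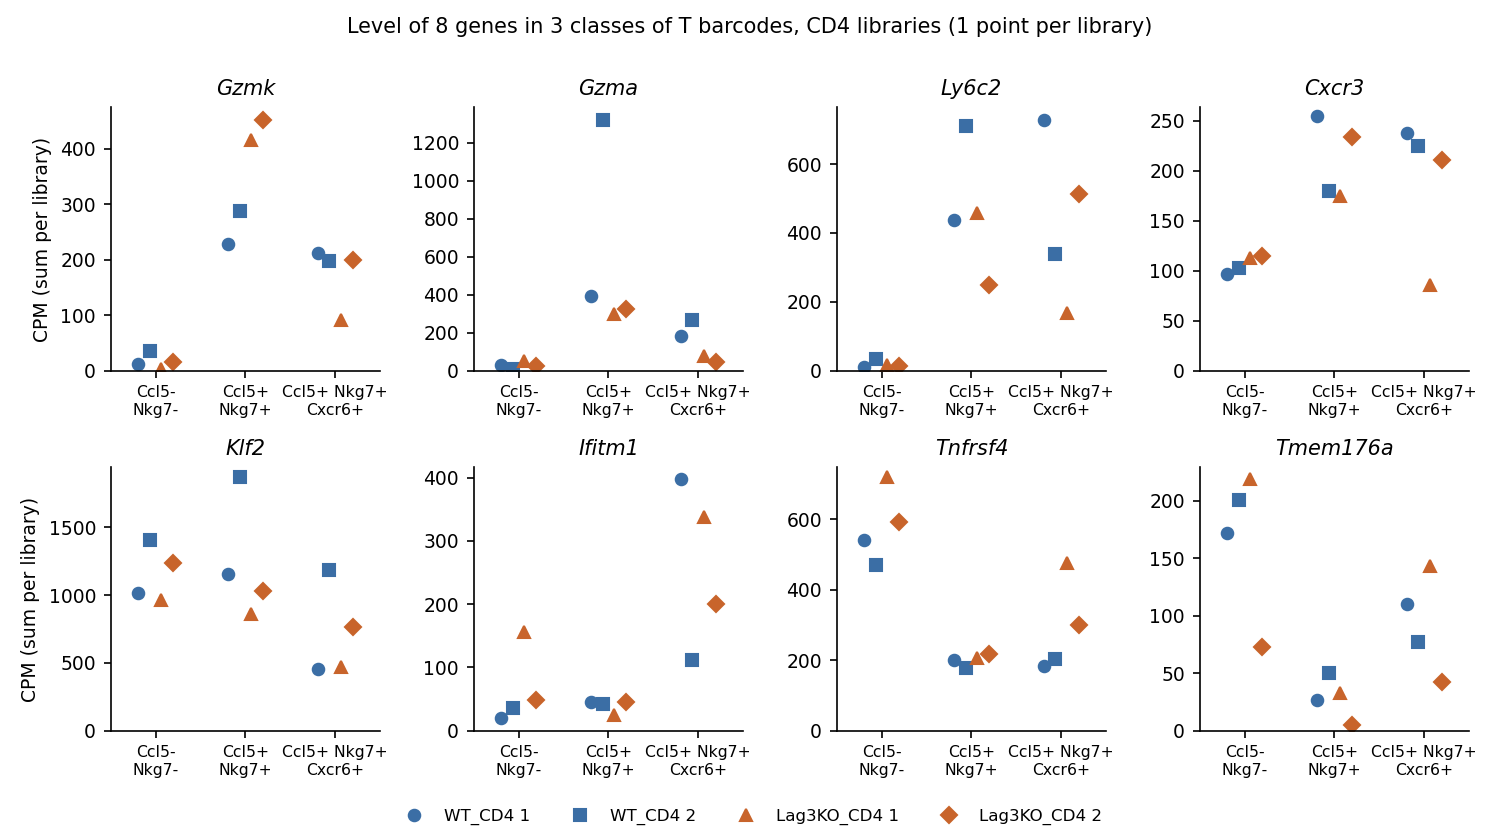
CPM (vertical axes, linear from 0) of 8 genes in Ccl5- Nkg7-, Ccl5+ Nkg7+ and Cxcr6+ Ccl5+ Nkg7+ T barcodes (horizontal axes), 1 point per CD4 library. Gzmk and Gzma peak in the middle class in every library, Ifitm1 is highest in the Cxcr6+ class in each library, and Tnfrsf4 is lower in the middle class than in Ccl5- Nkg7- barcodes in all 4.

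The 68 Ccl5+ Nkg7+ barcodes removed for Cd8a or Cd8b1 UMIs were too few for the planned minimum of 20 cells, so 4 libraries with at least 10 of each class were used, a choice made after the cell counts were seen. Of 1185 genes 3 (0.253%) passed, all lower in members: Ly6c2 (-1.54 ± 0.22, adjusted p = 0.00108), Ifitm1 (-2.47 ± 0.48, adjusted p = 0.0233) and the chemokine gene Cxcl2 (-2.91, adjusted p = 0.0233). A single gene passed with DESeq2, and a single one without the library labelled WT_CD45 2. Within the CD4 libraries, pooled CD8 barcodes (26) and members stood at 465 and 362 CPM of Gzmk, 3034 and 501 CPM of Gzma, and 1142 and 333 CPM of Gzmb. Within the CD45 libraries (42 CD8 barcodes), they stood at 273 and 37.9 CPM of Gzmk, 1858 and 683 CPM of Gzma, and 651 and 223 CPM of Gzmb. These are values with no test.

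Within the members, those with and without a Cd4 UMI could be compared in 3 CD4 libraries (Lag3KO_CD4 1 had 18 members with one). Of 1880 genes 8 passed (0.426%), 4 higher (0.213%) and 4 lower (0.213%) with Cd4. Gzma stood at 75.2, 361 and 299.6 CPM with Cd4 against 762, 2433 and 347 CPM without (-1.85 ± 0.22), and Gzmk at 175, 174 and 311 CPM against 289, 418 and 583 CPM (-0.94 ± 0.21). Both were lower with Cd4 in each of these libraries, and without the barcode of most UMIs (-2.03 and -1.15). In Lag3KO_CD4 1 the order was the other way, at 373 CPM of Gzma with Cd4 against 228 CPM without, and 440.3 against 392 CPM of Gzmk. With that library added at a minimum of 10 cells, Gzma (edgeR adjusted p = 0.283) and Gzmk (0.357) did not pass. Actb was lower (-0.47), and Tuba1b (1.33), Ifitm3 (1.34), Stmn1 (1.42) and 2810417H13Rik (2.15) were higher. Ccl4 was lower too (-4.17), in 2 of the 3 libraries, where 1 barcode held 30 of 31 and 41 of 45 UMIs. None of the 8 passed with DESeq2, after thinning or without WT_CD4 1, and Gzmk also lost its call without Lag3KO_CD4 2. In the share of barcodes with a UMI, Gzma differed little, at 13.2% with Cd4 and 14.1% without in the 4 CD4 libraries, as did Gzmk, at 32.7% and 35.7%.

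More members had a UMI of 1 granzyme gene than of 2 or 3, and Gzma and Gzmb were seen more often beside Gzmk than without it. Of the 424, 222 had a UMI of none of Gzmk, Gzma and Gzmb, 138 of 1, 52 of 2 and 12 of all 3. Gzmb UMIs were in 29.9% of members with Gzmk and 15.2% of those without, and Gzma UMIs in 19.4% and 11.7%. Eomes UMIs were in 23 members, 17 of them with Gzmk, and so in 12.7% of members with Gzmk and 2.07% of those without. All 23 came from the CD4 libraries. These shares pool cells of different libraries and depths and are given as a description.

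Between genotypes, members of the 2 Lag3KO_CD4 and 2 WT_CD4 libraries differed in 2 of 2639 genes tested (0.0758%), 1 higher (0.0379%) and 1 lower (0.0379%) in Lag3KO, and 84 had an unadjusted p under 0.05. On simulated data of this design, 93.9% of genes changed 4-fold and 16.7% of genes changed 2-fold were found. These shares cover only genes that passed the low-count filter, simulated with a common spread, and may be too high for genes that vary more. The 2 genes are near copies of each other. Tpm3-rs7 stood at 8.95 and 35.9 CPM in WT_CD4 1 and 2 against 299 and 295 CPM in Lag3KO_CD4 1 and 2 (3.89 ± 0.43, adjusted p = 0.0105). Tpm3, a tropomyosin gene, stood at 322 and 438 CPM against 91.4 and 82.5 CPM (-2.12 ± 0.28, adjusted p = 0.0298). Tpm3 lies at chr3:90072649-90100902 on the plus strand and Tpm3-rs7 at chr14:113314608-113316754 on the plus strand (GENCODE vM21, GRCm38). Whether reads were divided between these near copies was not tested.

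The near copies differed from each other in the CD45 libraries. There Tpm3-rs7 stood at 236 CPM in WT_CD45 1, 124 CPM in Lag3KO_CD45 1 and 11.7 CPM in the library labelled WT_CD45 2, and Tpm3, in that order, at 218, 155 and 444.5 CPM. Tpm3 was thus lower in Lag3KO than in WT members in both sorts, without overlap, but in the CD45 sort on 1 Lag3KO library. Without the library labelled WT_CD45 2, the CD45 values were those of 1 library each (218 against 155 CPM). Tpm3-rs7 overlapped within the CD45 sort. Tpm3-rs7 lies outside the rule for named genes for that reason and was named after its values were seen. Tpm3-rs7 was also higher in Lag3KO in Ccl5- Nkg7- barcodes of the CD4 libraries, at 3.22, 0, 255 and 324 CPM. In Cxcr6+ barcodes it stood at 8.71, 12.3, 244 and 304 CPM. Both calls were lost without WT_CD4 1 (adjusted p = 0.0578 and 0.0551) and when 7 libraries shared the spread. The number of called genes was 13 without WT_CD4 2, 12 without Lag3KO_CD4 1, 26 without Lag3KO_CD4 2 and 3 without WT_CD4 1, and 5 with a term for the haemoglobin libraries. Asking for a Cd4 UMI gave 9 calls in the 3 libraries left, with Lag3KO_CD4 2 alone for Lag3KO, and 0 in all 4 at a minimum of 10 members.

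None of the effector genes given here passed between genotypes with all 4 CD4 libraries. Gzmk averaged 258 ± 41.6 CPM in WT_CD4 and 434 ± 25.9 CPM in Lag3KO_CD4 members (SD, n = 2 each), a log2 difference of 0.78 ± 0.24 (edgeR adjusted p = 1.00). After CD45 selection Gzmk stood at 72.7 CPM in WT_CD45 1, 41.3 CPM in Lag3KO_CD45 1 and 11.7 CPM in the library labelled WT_CD45 2. Gzma averaged 857 ± 655 CPM in WT_CD4 and 312 ± 17.9 CPM in Lag3KO_CD4 members (-1.40 ± 0.45), with 394 CPM in WT_CD4 1 and 1321 CPM in WT_CD4 2. The log2 differences were -0.06 ± 0.28 for Cxcr3, -0.19 ± 0.49 for Gzmb, 0.78 ± 0.45 for Ifng, 0.81 ± 0.62 for Ccl4, -0.76 ± 0.33 for Ly6c2, 0.57 ± 0.34 for Il7r and -0.29 ± 0.28 for Cd4, and none passed. Leaving out 1 library gave calls for Gzmb (-1.24) and Ly6c2 (-1.16) without Lag3KO_CD4 1, and for Ifng (1.49) without Lag3KO_CD4 2. H2-Q7 stood at 671 and 984 CPM in WT_CD4 against 341 and 426 CPM in Lag3KO_CD4 members (-1.06 ± 0.24, edgeR adjusted p = 1.00), and after CD45 selection at 782 CPM in WT_CD45 1, 558 CPM in Lag3KO_CD45 1 and 421 CPM in the library labelled WT_CD45 2. It passed without a count filter, with the haemoglobin term and without Lag3KO_CD4 2.

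Tbx21, Xcl1 and Lag3 were under the filter on low counts. Tbx21 measured 40.3 and 50.3 CPM in members of the 2 WT_CD4 libraries, and 24.9 and 26.6 CPM in their Lag3KO_CD4 counterparts. Xcl1, a chemokine gene, had 6 UMIs in WT_CD4 1 and none in the other CD4 libraries. Lag3 had 4 UMIs in members of WT_CD4 1, 4 in WT_CD45 1 and none elsewhere.

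None of the 15 lists had a called gene between genotypes in the CD4 libraries. The type I interferon genes were above 0 in 11 of 11 tested (median 0.44, beside 1342 of 2639 and 0.0059 over all genes), the interferon gamma genes in 12 of 13 (median 0.29) and the regulatory T cell genes in 6 of 6 (median 0.46). Bst2, which encodes tetherin, differed by 0.79 ± 0.23, and Ifit1 by 0.84 ± 0.25, and neither passed. Granule genes were above 0 in 5 of 11 (median -0.02). The genotype difference was lower in members than in Ccl5- Nkg7- barcodes for 12 of 17 type I interferon genes (median -0.26). The same held for 12 of 15 interferon gamma genes (median -0.21), while 6 of 7 regulatory T cell genes went the other way (median 0.27). None of these genes was called in that comparison.

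With the CD45 libraries added at a minimum of 10 members, chosen after the cell counts were seen, edgeR called 0 of 2103 genes between genotypes over both sorts (0%), although 74 had a raw p below 0.05, while DESeq2 called 1 gene and edgeR 0 without the library labelled WT_CD45 2 (57). Within the CD45 libraries, 1 Lag3KO against 2 WT, the spread was taken from the fit of all 7 libraries, so the lone library is assumed to vary like the others. There edgeR called 0 of 2669 genes (0%), 141 having a raw p below 0.05, while DESeq2 called 1, and edgeR called 0 in the 1 against 1 comparison without the library labelled WT_CD45 2 (172 with such a p).

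**Figure D5:**
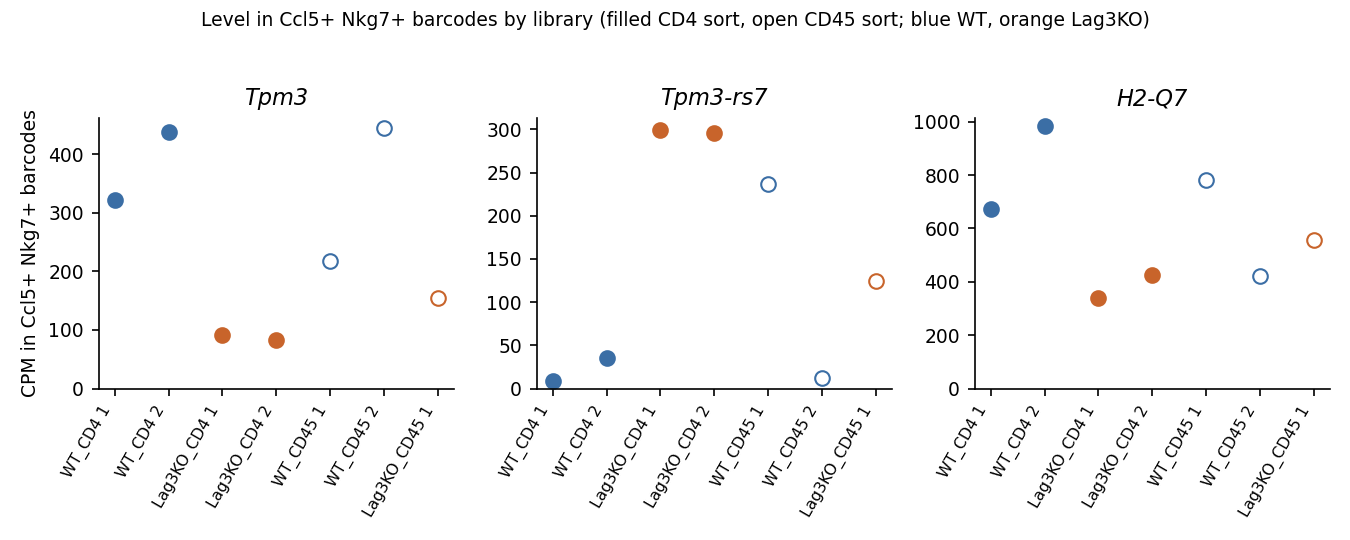
CPM (vertical axes, linear from 0) of Tpm3, Tpm3-rs7 and H2-Q7 in Ccl5+ Nkg7+ barcodes of each library (horizontal axes), filled for the CD4 sort and open for the CD45 sort. The WT and Lag3KO points separate in the CD4 libraries for all 3 genes. With the CD45 libraries, which hold a lone Lag3KO library, Tpm3 stays separate, Tpm3-rs7 overlaps, and H2-Q7 overlaps through the library labelled WT_CD45 2 (421 CPM).

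Whether the genotype difference of members differed from that of Ccl5- Nkg7- barcodes was tested as an interaction in the CD4 libraries. Of 4716 genes 6 passed (0.127%), 3 higher and 3 lower (0.0636% each). They were Ccl1, Il2 and Ifng, and H2-Aa, H2-Ab1 and Hbb-bs, and in each of them 1 barcode held most UMIs of a library and class. With the barcode of most UMIs left out for each gene, edgeR called 0 of 4166 genes (147 had a raw p below 0.05). DESeq2 on all barcodes also called 0, where 12 had such a p. On simulated data the edgeR interaction test found 24.5% of genes changed 4-fold and 0% of genes changed 2-fold. Most differences of that size would thus be missed.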

How the data were processed

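Single-cell RNA-seq libraries of CD4-selected and CD45-selected cells were deposited by the authors as matrices of UMI counts per gene and barcode, not normalized, made with Cell Ranger per the submitters' processing notes, which also name Seurat and the builds GRCm38 and mm10. The matrices of the 4 CD4 libraries carry version 3.0.2, per the file headers. Of the genes, 27998 were listed in all 7 libraries and 694 in the CD45 libraries only, T cell receptor genes among them.

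The members and gene lists were chosen with earlier results of these data known. Groups came from the labels. UMIs were summed per library and class, for classes of at least 20 cells, and given as UMIs per 1000000 of that sum (CPM). The tests were edgeR 4.0.16 (TMM scaling, low-count filter, quasi-likelihood, two-sided, Benjamini-Hochberg threshold 0.05) with limma 3.58.1 in R 4.3.3. Class comparisons had library as a term and left out the rule's genes. DESeq2 1.42.0, DESeq2 size factors, no count filter, thinning to 1500 UMIs, doublet removal and leaving out each library were alternatives. Doublets were kept (Scrublet in scanpy 1.11.5 marked 9 members). Shares were compared with an exact permutation test within sort. Intervals, the limit of 3 UMIs for a count of 0 and depth cover counting error only. No CD45 library held 20 members, so tests over both sorts, within CD45 and against CD8 barcodes could not be run as planned and used the smaller minimums given beside them, chosen after cell counts were seen.

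The named genes were the 12 of smallest p in each direction among called genes with the same sign in every library (between genotypes, with no overlap within a sort), plus tested list members and 13 genes fixed for the genotype comparison. On simulated data the class comparison with Ccl5- Nkg7- barcodes found 92.9% of genes changed 4-fold and 27.5% of genes changed 2-fold (4807 genes), with 3 false calls of 69. All simulations gave every gene a common spread, and the shares found cover only genes that passed the low-count filter. Promoters came from RefSeq, where 11 of 15 genes looked up were matched. A few list members are counted in the lists but not reported by name here.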

Additional observations from a re-analysis of the deposited data

Results flagged for a closer look

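Between members and Ccl5- Nkg7- barcodes of the CD4 libraries, the genotype difference (Lag3KO minus WT) itself differed in 6 genes by edgeR's interaction test with Benjamini-Hochberg adjustment. On the log2 scale the difference of differences was 7.70 for the chemokine gene Ccl1 (adjusted p = 2.35e-12), 5.59 for Il2 (5.73e-06) and 2.84 for Ifng (0.0198), and -4.64 for H2-Aa (0.00062), -3.07 for H2-Ab1 (0.00169) and -4.49 for Hbb-bs (0.0354). Single barcodes carried most of these UMIs. In WT_CD4 1, 1 Ccl5- Nkg7- barcode held 365 of 562 Ccl1 UMIs, 1 held 300 of 310 Il2 UMIs and 1 held 44 of 54 Ifng UMIs. In Lag3KO_CD4 1, 1 member held 64 of 65 Ccl1 UMIs. In WT_CD4 2, 1 member held 61 of 63 H2-Aa and 1 held 51 of 53 H2-Ab1 UMIs, and in Lag3KO_CD4 2, 1 Ccl5- Nkg7- barcode held 118 of 124 Hbb-bs UMIs. None of the 6 was called without the barcode of most UMIs.

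T cell receptor genes were listed in the CD45 libraries alone and entered no comparison. In the 52 members there, Trac had 231 UMIs, Trbc1 124, Trbc2 401, Trdc 13, Tcrg-C1 7, Tcrg-C2 7 and Tcrg-C4 8, each above the limit of 3 UMIs that a count of 0 allows.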

How the results depend on the processing

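No paired analysis was possible because the replicate numbers were given in accession order and pair no libraries. Alternatives with smaller cell minimums, all 7 libraries, without the library labelled WT_CD45 2 or without the barcode of most UMIs were chosen after seeing the data, and the settings meant for the tests over both sorts, within CD45 and against CD8 barcodes were not run. The share difference over both sorts stayed above 0 in the alternatives run, none of which could pass the threshold, since the exact permutation test allows too few arrangements. Within the CD45 libraries it turned from 1.24 to -2.12 points with a Cd4 UMI asked for, -0.529 without NK or gamma delta transcripts and -1.85 over all Ccl5+ Nkg7+ T barcodes. The causes of the changes below were not tested. Between genotypes in the CD4 libraries, the count of 2 became 20 without a count filter, 9 in members with a Cd4 UMI, which also lost Lag3KO_CD4 1, 5 with the haemoglobin term, 0 in the fit of 7 libraries, 0 in members with a Cd4 UMI at a minimum of 10, and 3 to 26 leaving out a library. DESeq2 called 1 gene over both sorts and 1 within CD45. Against Ccl5- Nkg7- barcodes, 384 became 190 with DESeq2, 207 after thinning and 253 to 385 leaving out a library. Against Cxcr6+ barcodes, 79 became 18 with DESeq2, 12 after thinning, 30 with 7 libraries, 41 without the library labelled WT_CD45 2 and 19 to 102 leaving out a library. Against CD8 barcodes, 3 became 1 with DESeq2 and 1 without the library labelled WT_CD45 2. For the Cd4 split, 8 became 0 with DESeq2, 13 without a filter, 0 after thinning, 2 without the barcode of most UMIs, 5 in 4 libraries and 0 to 9 leaving out a library. For the interaction, 6 became 0 with DESeq2, 0 without the barcode of most UMIs and 5 to 16 leaving out a library.

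Signs turned for Ccl4 against Cxcr6+ barcodes (-0.83 without the barcode of most UMIs, -0.53 with 7 libraries, -0.091 without the library labelled WT_CD45 2), and in the interaction for Il2 (-0.99 to 6.23 leaving out a library, lowest without Lag3KO_CD4 2), H2-Aa (-8.58 to 2.87, highest without WT_CD4 2) and Hbb-bs (-4.71 to 0.26, highest without Lag3KO_CD4 2). Between genotypes, signs of uncalled genes turned for Cxcr3 (-0.37 to 0.24 leaving out a library), Gzmb (-1.24 to 0.59 leaving out a library, 0.36 without the barcode of most UMIs), Cd4 (0.10 in members with a Cd4 UMI) and Il7r (-0.075 in members with a Cd4 UMI at a minimum of 10).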
